A study of Macaca fascicularis with 16 samples.

Results

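The genes described here belong to the mucus machinery of secretory epithelium, and which cells of the endometrium expressed them was not tested. They are the mucins MUC1, MUC16 and MUC20, the endoplasmic reticulum proteins AGR2 and AGR3, the trefoil peptide TFF3, and transcription factors SPDEF and CREB3L1. Members were all probe sets whose single gene symbol in the platform annotation was 1 of these 8 names. That rule found 15 of 52865 probe sets, for 7 of 14132 genes. No probe set carried MUC16 as its single symbol, and that gene was not analysed here. AGR2 had 2 probe sets, MUC1 had 4, MUC20 and SPDEF had 3 each, and AGR3, TFF3 and CREB3L1 had 1 each.

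The samples were endometrium of 16 female cynomolgus macaques, Macaca fascicularis, all past menopause. Each animal gave 1 array, and animals had been assigned at random to 4 parallel arms of 4. In the combination arm the animals received micronized estradiol at 0.25 mg and tamoxifen at 20 mg per 1800 kcal of diet. The tamoxifen arm received only tamoxifen, a selective estrogen receptor modulator, and the estradiol arm only estradiol, each at the same dose. The control arm received placebo, and tissue was taken after 4 months in every arm. The labels give no ages of the animals and do not say whether menopause was natural or surgical. The 1-colour Affymetrix probes were made to rhesus macaque sequence, so each level is a hybridisation signal of cynomolgus RNA on probes of another species.

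Mucus is made by secretory epithelial cells, which fold mucins in the endoplasmic reticulum, add O-linked sugars in the Golgi apparatus and release them at the apical surface. AGR2 is a member of the protein disulfide isomerase family that mucin folding needs in the mouse intestine, and trefoil peptides are released together with gel-forming mucins. In the uterus, membrane-bound mucins such as MUC1 coat the surface of the lumen, and ovarian steroids regulate several of these genes.

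Signals were compared as log2(signal + 4.80), and a difference on that scale is given with its standard error (SE) from a limma fit to all 16 arrays. An adjusted p is Benjamini-Hochberg over the 31659 probe sets tested, with a threshold of 0.05. Of the 15 member probe sets, 13 passed the filter on dim probe sets and 2, both of MUC20, did not. Each array had a trimmed mean signal of 250.0, and medians ran from 58.7 to 70.3. Uterine genes were well measured: the mean signals of ESR1, PGR, HOXA10, HOXA11 and EMX2 all passed the filter, with HOXA11 averaging 2496 and EMX2 2263. Among markers of squamous epithelium, KRT4, SPRR3, DSG3 and IVL did not pass the filter, and KRT13 and TP63 did. Smooth muscle markers stood apart on 2 arrays: their score, the average over 7 genes of the log2 deviation from the gene's mean, was -3.72 in estradiol animal 4 and -0.95 in tamoxifen animal 1. Control arrays lay between 0.05 and 0.34 on that score. All 7 smooth muscle genes were bright, from SMTN at percentile 94.6 of all probe sets by mean to TAGLN at 99.8. The epithelial gene EPCAM was at percentile 94.8. The arrays therefore also measured muscle RNA, and how much muscle each sample held was not tested.

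In each drug arm AGR2 had the largest difference from control of the 7 brightest probe sets, and TFF3 and MUC20 passed in fewer arms than the other genes. Against control, 11 of 13 tested member probe sets were higher with the combination, 10 with tamoxifen and 9 with estradiol, and none was lower. The 13 probe sets measure 7 genes and are not independent. By gene, 6 of 7 had a probe set called higher with the combination, 5 with tamoxifen and 5 with estradiol. Among all tested probe sets the share called higher was 8.05% with the combination, 7.14% with tamoxifen and 13.2% with estradiol. The median log2 difference of the 13 probe sets was 1.79 with the combination, 1.30 with tamoxifen and 1.20 with estradiol. All 4 arrays of the drug arm lay above all 4 control arrays for 13 of the 13 probe sets with the combination, where the share over all tested probe sets was 11.7%. The same held for 10 probe sets with tamoxifen, against 9.02% of all, and for 7 with estradiol, against 12.4% of all. These 3 comparisons share the same 4 control arrays. The filter was on the mean over all arrays, the lowest that passed being 5.36 on the log2 scale. MUC1's MmugDNA.16948.1.S1_at, SPDEF's MmugDNA.41932.1.S1_s_at and MUC20's MmugDNA.27626.1.S1_at averaged 4.70, 4.71 and 4.90 in control animals. They passed the filter only through the drug arms, and they are among the 13. Without estradiol animal 4 and tamoxifen animal 1 together, 12 member probe sets were called higher with the combination, 8 with tamoxifen and 8 with estradiol, where the shares of all tested probe sets were 10%, 6.04% and 12.6%.

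**Figure D1:**
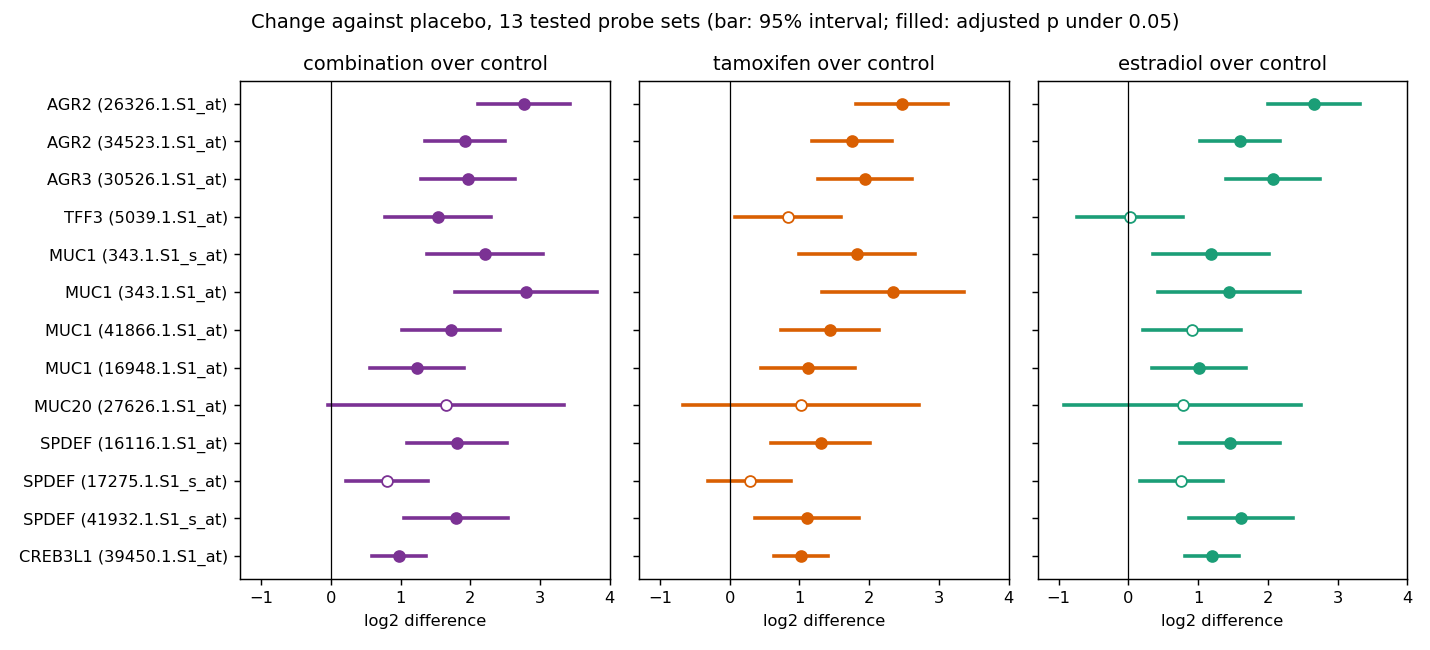
Log2 difference from control (horizontal axis) of each of the 13 tested probe sets, for the combination, tamoxifen and estradiol from left to right; bars are 95% intervals and filled points passed the adjusted threshold. Points for AGR2, AGR3 and CREB3L1 are filled in all panels, and TFF3 is filled only for the combination.

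AGR2, the disulfide isomerase relative that helps fold mucins, had signals of 3630, 4184, 3229 and 2675 on its brighter probe set (MmugDNA.26326.1.S1_at) in combination animals 1 to 4. In the tamoxifen arm the signals were 5836, 1605, 2720 and 2272, and in the estradiol arm 3318, 3549, 2125 and 3886. Control animals had 388, 413, 650 and 557. No drug array overlapped a control array, and tamoxifen animals 1 and 2 held the highest and the lowest of the 12 drug-arm values. The log2 difference from control was 2.77 (SE 0.31, adjusted p = 0.000151 by limma) with the combination, a 6.83-fold higher level. It was 2.48 (SE 0.31, adjusted p = 0.000395) with tamoxifen and 2.67 (SE 0.31, adjusted p = 6.66e-05) with estradiol.

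The dimmer AGR2 probe set (MmugDNA.34523.1.S1_at) ran from 136 to 181 with the combination, from 94.8 to 238 with tamoxifen and from 83.3 to 166 with estradiol, against 33.7 to 50.8 in control animals. Its log2 differences from control were 1.92, 1.75 and 1.60 in that order of drugs (SE 0.27 each, adjusted p = 0.000502, 0.00132 and 0.000764 by limma). Both AGR2 probe sets therefore passed the threshold in each drug arm, with smaller differences on the dimmer one.

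AGR3, a relative of AGR2 described in ciliated airway cells of mice, had signals of 1506, 1311, 1375 and 1423 in combination animals (MmugDNA.30526.1.S1_at). Tamoxifen animals had 2686, 754, 1657 and 1043, estradiol animals had 1295, 1313, 1175 and 2547, and control animals had 328, 315, 489 and 310.2. Every drug array lay above every control array, and the combination arrays lay closest together. The log2 difference from control was 1.97 with the combination (SE 0.32, adjusted p = 0.00122 by limma), 1.94 with tamoxifen (adjusted p = 0.00181) and 2.07 with estradiol (adjusted p = 0.00041). AGR2 and AGR3 are direct neighbours in the RefSeq annotation of the cynomolgus genome, with 0 protein-coding genes between them. Over the 16 arrays the log2 levels of AGR2 and AGR3 correlated with r = 0.96, a description of arrays that share the arm differences.

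Ciliated cell genes were set beside AGR3. Of 12 markers, 7 were tested and 0 passed the threshold against control in any drug arm by limma. At an unadjusted p under 0.05 there were 3 with the combination, 3 with tamoxifen and 0 with estradiol. The share of all genes at that unadjusted level was not computed. Their score ran from 0.30 to 0.77 with the combination, from -0.39 to 1.71 with tamoxifen and from -1.29 to 1.16 with estradiol, against -0.82 to -0.09 in control animals. The part of ciliated cells in the AGR3 difference was not tested.

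TFF3, a small secreted trefoil peptide, passed the threshold against control only with the combination. Combination animals had signals of 146, 91.1, 133 and 130.2 (MmugDNA.5039.1.S1_at), and tamoxifen animals 124, 56.4, 52.2 and 81.9. Estradiol animals had 63.7, 60.8, 40.8 and 14.7, and control animals 46.9, 49.1, 36.4 and 28.1. The combination and the tamoxifen arrays all lay above the control arrays, whereas estradiol and control arrays overlapped and estradiol animal 4 had the lowest value of all 16. The log2 difference from control was 1.54 with the combination (SE 0.36, adjusted p = 0.0101 by limma), a 2.90-fold higher level. With tamoxifen it was 0.84 (SE 0.36, adjusted p = 0.130) and with estradiol 0.02 (95% interval -0.74 to 0.78, adjusted p = 0.976), so neither passed. TFF3 signals were low for this array, with a mean at percentile 49.6 of all probe sets.

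Between the combination and estradiol, TFF3 differed by 1.52 on the log2 scale (95% interval 0.76 to 2.28), and all 4 combination arrays lay above all 4 estradiol arrays, as in 4.19% of all tested probe sets. The adjusted p was 0.0520 by limma, just outside the threshold. It lay between 0.0337 and 0.0497 with a pseudocount of 16, with animal number as a block, with an epithelium score as a covariate, without estradiol animal 3, or without estradiol animal 4 and tamoxifen animal 1 together. Those were 5 of 18 alternative settings. In the other 13 the difference stayed outside the threshold, with adjusted p up to 0.135 by limma. Without estradiol animal 4 alone the difference was 1.12 (adjusted p = 0.0853).

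**Figure D2:**
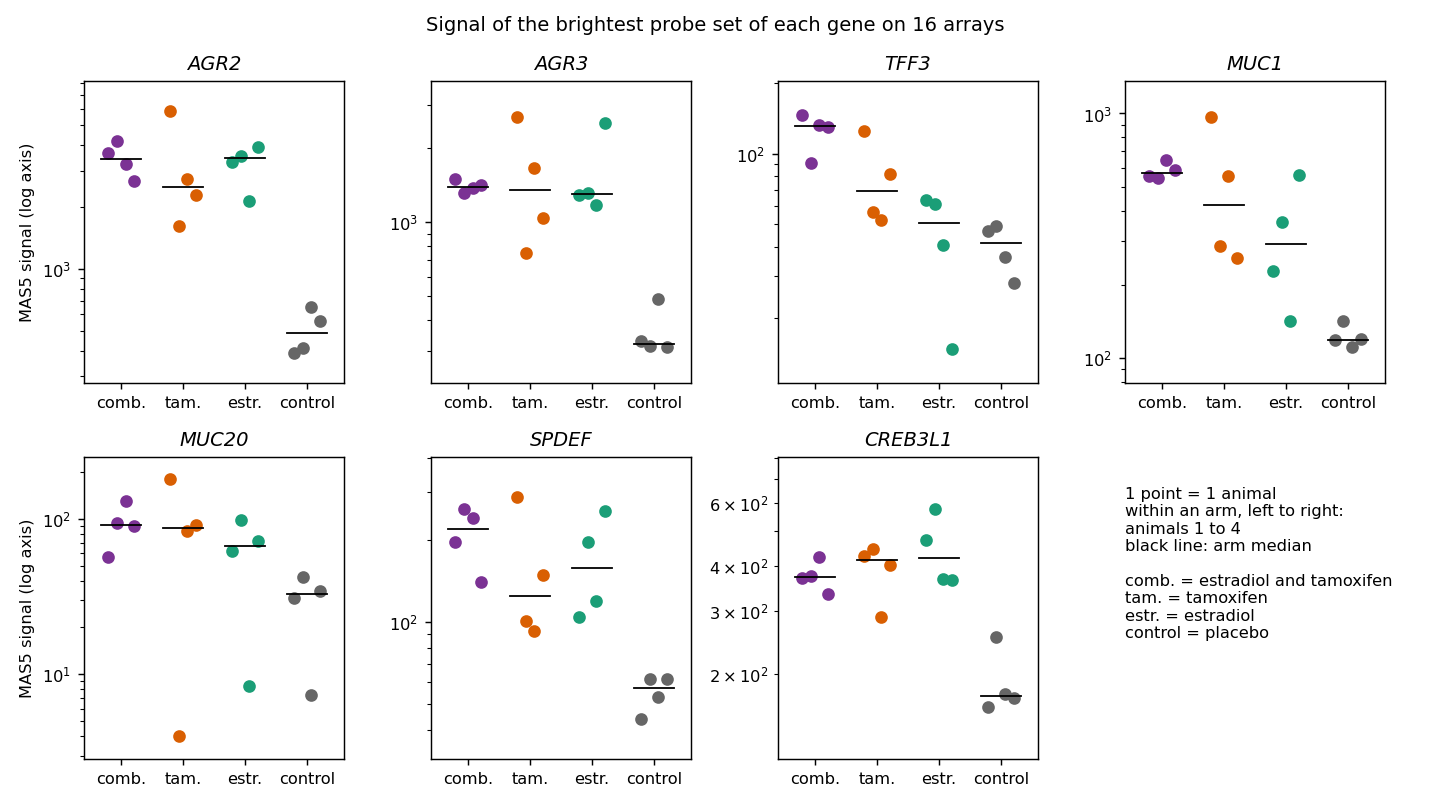
Signal (vertical log axis) of the brightest probe set of each of the 7 genes; each point is 1 animal, black lines are arm medians, and the arms run from combination to control. AGR2, AGR3 and CREB3L1 drug arrays all sit above the control arrays, and the TFF3 medians are 132 with the combination, 69.1 with tamoxifen, 50.8 with estradiol and 41.7 in control animals.

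MUC1 is the membrane-bound mucin of the luminal surface, and all 4 of its probe sets passed the filter. On the brightest (MmugDNA.343.1.S1_s_at, a name that in Affymetrix usage marks probes shared by several transcripts), combination animals had 557, 546, 647 and 588. Tamoxifen animals had 969, 288, 556 and 257, estradiol animals 227, 361, 141 and 562, and control animals 118, 143, 111 and 120.0. Combination and tamoxifen arrays lay above all controls, while estradiol animal 3 fell within the control range. The log2 difference from control was 2.21 (SE 0.39, adjusted p = 0.00215 by limma) with the combination and 1.83 (SE 0.39, adjusted p = 0.00790) with tamoxifen. With estradiol it was 1.19 (SE 0.39, adjusted p = 0.0369).

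The other MUC1 probe sets were higher by 2.79, 1.72 and 1.24 with the combination and by 2.35, 1.43 and 1.12 with tamoxifen (log2), and all 6 differences passed the threshold. With estradiol the differences were 1.44, 0.91 and 1.02, and the second of these, on MmugDNA.41866.1.S1_at, missed it with an adjusted p of 0.0557. The estradiol call on the brightest probe set was not stable. It was lost without control animal 1, 3 or 4 and without estradiol animal 2 or 4, where adjusted p ran up to 0.113, and without the filter on dim probe sets (adjusted p = 0.0515).

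MUC20, a membrane-bound mucin reported to bind the receptor MET, was scattered on its brightest probe set (MmugDNA.27626.1.S1_at). Combination animals had 56.8, 93.5, 130 and 89.8, tamoxifen animals 179, 4.00, 83.0 and 91.1, estradiol animals 61.8, 97.8, 8.37 and 71.8, and control animals 30.9, 41.9, 7.31 and 34.5. In each of the tamoxifen, estradiol and control arms a single animal lay far below the other 3, and only the combination arm cleared all controls. The log2 differences from control were 1.65 with the combination (SE 0.80, 95% interval -0.05 to 3.35, adjusted p = 0.177 by limma), 1.02 with tamoxifen (adjusted p = 0.426) and 0.78 with estradiol (adjusted p = 0.515). With only the combination and control arms in the fit, the adjusted p of the first was 0.0247, the only 1 of 18 alternative settings in which it passed.

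The remaining 2 MUC20 probe sets stayed below the filter. On MmugDNA.8471.1.S1_at the signals ran from 24.4 to 76.9 with the combination, from 13.5 to 73.8 with tamoxifen and from 29.1 to 66.5 with estradiol, against 8.50 to 23.8 in control animals. On MmugDNA.7404.1.S1_at they ran from 6.85 to 28.6, from 15.6 to 24.9 and from 5.91 to 15.3 in the same order of drugs, against 7.36 to 28.0 in control animals. With no filter, neither probe set passed the threshold in any of the 7 comparisons, and the nearest was MmugDNA.8471.1.S1_at with estradiol, at a log2 difference of 1.38 and an adjusted p of 0.0505.

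SPDEF, an ETS factor that drives goblet cell differentiation in mouse gut and airway, had signals of 197, 260, 240 and 140 on its brightest probe set (MmugDNA.16116.1.S1_at) in combination animals. Tamoxifen animals had 289, 101, 92.9 and 149, estradiol animals 104, 197, 119 and 256, and control animals 44.0, 61.8, 53.1 and 62.0. Every drug array lay above every control array. The log2 difference from control was 1.81 (SE 0.34, adjusted p = 0.00279 by limma) with the combination, 1.30 (adjusted p = 0.0195) with tamoxifen and 1.46 (adjusted p = 0.00565) with estradiol. The tamoxifen call was lost without control animal 1 (adjusted p = 0.0540) and without tamoxifen animal 1 (adjusted p = 0.0545).

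The log2 differences from control were positive on all 3 SPDEF probe sets, but their sizes and calls differed. On MmugDNA.41932.1.S1_s_at the log2 differences were 1.79 with the combination, 1.11 with tamoxifen and 1.62 with estradiol, all past the threshold, the tamoxifen one with an adjusted p of 0.0474 and overlapping arrays. On MmugDNA.17275.1.S1_s_at they were 0.80, 0.29 and 0.76, with adjusted p of 0.0623, 0.531 and 0.0567, and none passed. That probe set's signals ran from 86.0 to 101 with the combination, from 41.4 to 84.7 with tamoxifen and from 56.3 to 172 with estradiol, against 43.2 to 60.9 in control animals.

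CREB3L1, a membrane-tethered factor that is cut and sent to the nucleus and promotes genes of secretion, had signals of 370, 374, 422 and 334 in combination animals (MmugDNA.39450.1.S1_at). Tamoxifen animals had 425, 445, 287 and 403, estradiol animals 473, 575, 368 and 365, and control animals 162, 253, 175 and 171. No drug array overlapped control. The log2 differences were 0.98 with the combination (SE 0.18, adjusted p = 0.00279 by limma), 1.02 with tamoxifen (adjusted p = 0.00281) and 1.20 with estradiol (adjusted p = 0.000371). As folds these were 1.97, 2.03 and 2.30.

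Between the drug arms, limma called 0 of the 13 member probe sets in each of the 3 comparisons. Of all tested probe sets, 1.22% were called for the combination over estradiol, 0.569% for tamoxifen over estradiol and 0 for the combination over tamoxifen. At an unadjusted p under 0.05 there were 4 members for the combination over estradiol, namely TFF3 and 3 probe sets of MUC1. There was 1 for tamoxifen over estradiol, namely TFF3, and 0 for the combination over tamoxifen. The share of all tested probe sets at that unadjusted level was not computed, so these counts are only a description. The 3 MUC1 probe sets measure 1 gene and correlated with r of 0.97 to 0.99. MUC1 on its brightest probe set was 1.02 higher on the log2 scale with the combination than with estradiol (95% interval 0.19 to 1.86, adjusted p = 0.210), with overlapping arrays. Without estradiol animal 4 and tamoxifen animal 1 together it was 1.35 (adjusted p = 0.0434). That MUC1 difference passed in 2 of 18 alternative settings, this one and the fit with the epithelium score as a covariate. With single arrays left out it was as low as 0.69, and adjusted p reached 0.404 by limma. The AGR2 interval was -0.55 to 0.77 for the combination over estradiol, -0.37 to 0.95 for the combination over tamoxifen and -0.85 to 0.47 for tamoxifen over estradiol. For AGR3 the intervals were -0.77 to 0.57, -0.64 to 0.71 and -0.81 to 0.54 in the same order. All 6 intervals stayed within 1 log2 unit of 0. For SPDEF's MmugDNA.17275.1.S1_s_at, all 4 combination arrays lay above all 4 tamoxifen arrays, as in 1.16% of all tested probe sets.

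The interaction asks whether the estradiol effect with tamoxifen differs from that without it, and equals the combination change minus the sum of the single-drug changes on the log2 scale. It was called lower for 4 of 13 member probe sets, where 5.35% of all tested probe sets were called lower. The values were -2.37 for AGR2 (SE 0.44, adjusted p = 0.00584 by limma), -1.43 for its dimmer probe set (adjusted p = 0.0290), -2.04 for AGR3 (SE 0.45, adjusted p = 0.0130) and -1.25 for CREB3L1 (SE 0.26, adjusted p = 0.00960). For AGR2, adding estradiol to tamoxifen went with a log2 difference of 0.29, whereas estradiol over control was 2.67. MUC1 (-0.81, adjusted p = 0.387) and SPDEF (-0.95, adjusted p = 0.223) also had negative values that did not pass. TFF3 had a positive value of 0.67 with a 95% interval of -0.40 to 1.75 (adjusted p = 0.433). Negative interactions were not confined to the members, and those of the stroma and epithelium markers are given below.

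**Figure D3:**
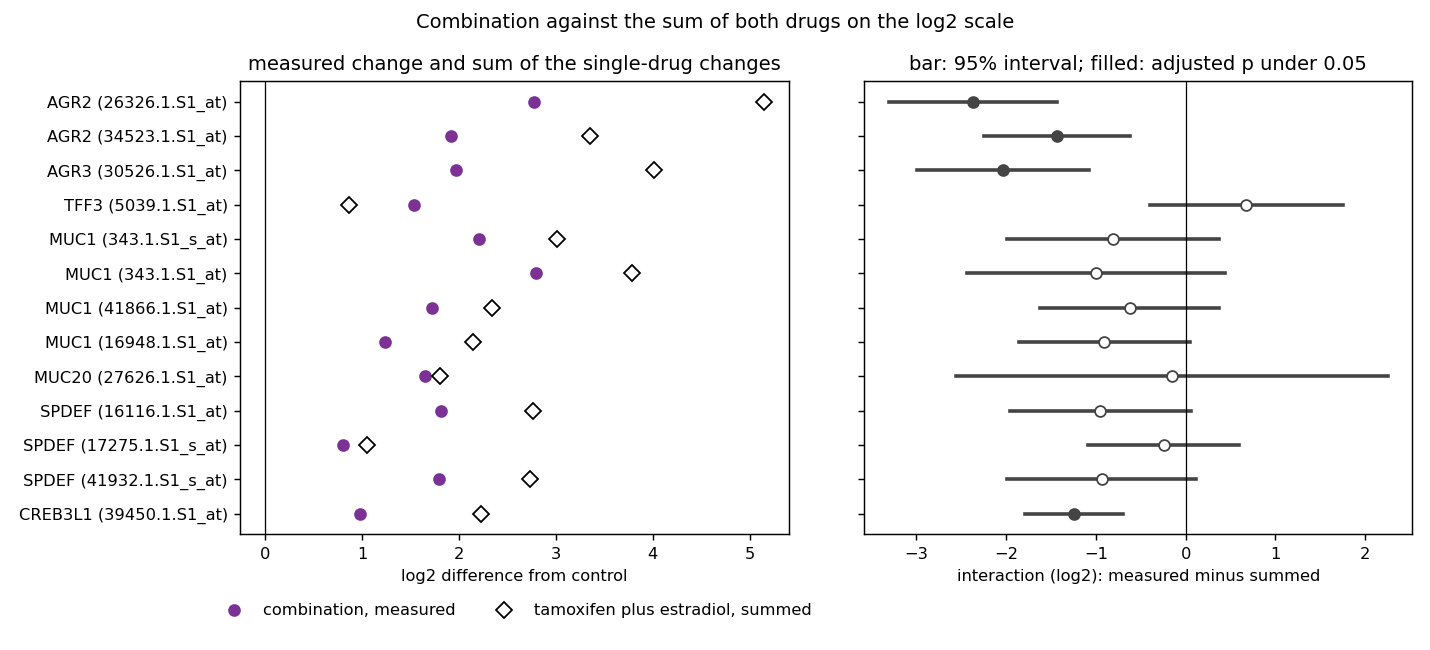
On the left, the measured log2 change of the combination from control (filled circles) and the sum of the changes with tamoxifen and with estradiol (open diamonds) for 13 probe sets; on the right, their difference with its 95% interval, filled where it passed the threshold. The circles lie left of the diamonds for every probe set except TFF3, and 4 differences are filled.

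Epithelial markers moved with the treatment too. In bulk tissue, fewer cells of a type and less RNA per cell cannot be told apart, so marker levels are given beside the members. Of 17 epithelium markers, 12 were tested, and 7 rose with the combination, 5 with tamoxifen and 7 with estradiol. KRT8, an epithelial keratin, was higher by 1.61, 1.66 and 2.10 on the log2 scale in that order, and EPCAM, an epithelial adhesion molecule, by 1.47, 1.15 and 1.23. The epithelium score ran from 0.0062 to 0.45 with the combination, from -0.52 to 0.82 with tamoxifen and from -0.17 to 0.94 with estradiol, against -0.76 to -0.66 in control animals. Tamoxifen animal 1 and estradiol animal 4, the arrays low in smooth muscle markers, had the highest epithelium score of their arms. Of 10 stroma markers, 4 rose with the combination, 4 with tamoxifen and 7 with estradiol. Of 7 endothelium markers 1, 1 and 3 fell, and of 6 leukocyte markers 3, 3 and 0 fell, in the same order of drugs. The part of these other cell types in the members' differences was not tested. Among all 10705 genes, 10.6%, 8.59% and 16.5% were called higher and 9.09%, 7.64% and 13.2% lower, in that order. The interaction was called lower for 7 of the 10 stroma markers (median -1.51) and for 6.55% of all genes. For the 12 epithelium markers 1 was called lower, and 5 had an unadjusted p under 0.05 by limma. Of the 7 endothelium markers 1 was called higher, and 0 of the 6 leukocyte markers were called. The part of these cell types in the members' interaction was not tested. On each gene's brightest probe set, tamoxifen animal 1 also had the highest AGR2, AGR3, TFF3, MUC1, MUC20 and SPDEF signals of its arm.

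The epithelium score itself differed by arm: no drug array, the lowest at -0.52, reached the control range of -0.76 to -0.66. A fit with the score as a covariate extends the slope seen within arms across that gap. It therefore cannot separate the score from the treatment. With this covariate, the members called higher against control were 5 with the combination, 4 with tamoxifen and 3 with estradiol. The shares of all tested probe sets were 5.32%, 4.03% and 5.40%. AGR2 on its brighter probe set was then higher by 1.81, 1.62 and 1.65 on the log2 scale, AGR3 by 0.93, 1.01 and 0.96, and CREB3L1 by 1.05, 1.09 and 1.28, all past the threshold. The dimmer AGR2 probe set passed with the combination (1.19) and with tamoxifen (1.10), and with estradiol was 0.83 (adjusted p = 0.0831). MUC1 and SPDEF no longer passed in any of the 3 comparisons on any probe set. For MUC1 the values were 0.87 with the combination, 0.64 with tamoxifen and -0.24 with estradiol, and for SPDEF 0.84, 0.44 and 0.42. TFF3 with the combination was 1.75 (adjusted p = 0.0429). In that fit 4 members were called for the combination over estradiol, where 1.85% of all probe sets were called higher: TFF3 at 1.50 and 3 MUC1 probe sets at 1.11, 1.44 and 0.87. For tamoxifen over estradiol 1 member was called, the brightest MUC1 probe set at 0.87 (adjusted p = 0.0499), where 0.417% of all probe sets were called higher. The interaction passed the threshold, as 2.30% of all probe sets did in the lower direction, for AGR2 on its brighter probe set (-1.46, adjusted p = 0.0265) and CREB3L1 (-1.32, adjusted p = 0.0316). It was -0.74 on the dimmer AGR2 probe set (adjusted p = 0.232) and -1.04 for AGR3 (adjusted p = 0.0612), neither past the threshold.

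A simpler view subtracts the epithelium score from each log2 level, a view added after seeing the data and given with no test. It imposes the same slope on every gene, whereas the covariate fit estimates a slope for each. AGR2 then ran from 11.21 to 11.82 with the combination, 11.12 to 11.69 with tamoxifen and 10.98 to 11.69 with estradiol, against 9.31 to 10.02 in control animals. AGR3 ran from 9.91 to 10.55, from 10.05 to 10.58 and from 9.92 to 10.37 in the same order of drugs, against 8.99 to 9.61 in control animals. For both genes no drug array reached down to control. MUC1 cleared the control range of 7.52 to 7.97 with the combination (8.65 to 9.13) and with tamoxifen (8.05 to 9.11), and overlapped it with estradiol (7.36 to 8.20). SPDEF cleared the control range of 6.30 to 6.82 with the combination (mean 7.46, highest array 7.65) and overlapped it with tamoxifen (6.31 to 7.38) and estradiol (6.77 to 7.21). CREB3L1 overlapped control in every drug arm, with 8.11 to 8.54 with the combination, 7.90 to 9.34 with tamoxifen and 7.59 to 8.90 with estradiol, against 8.07 to 8.77 in control animals. TFF3 and MUC20 also overlapped control in every drug arm. In the covariate fit, CREB3L1 had kept differences of 1.05, 1.09 and 1.28 in the same order of drugs. There TFF3 had been 1.75 with the combination. The overlap of CREB3L1, and of TFF3 with the combination, thus depends on the imposed slope.

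**Figure D4:**
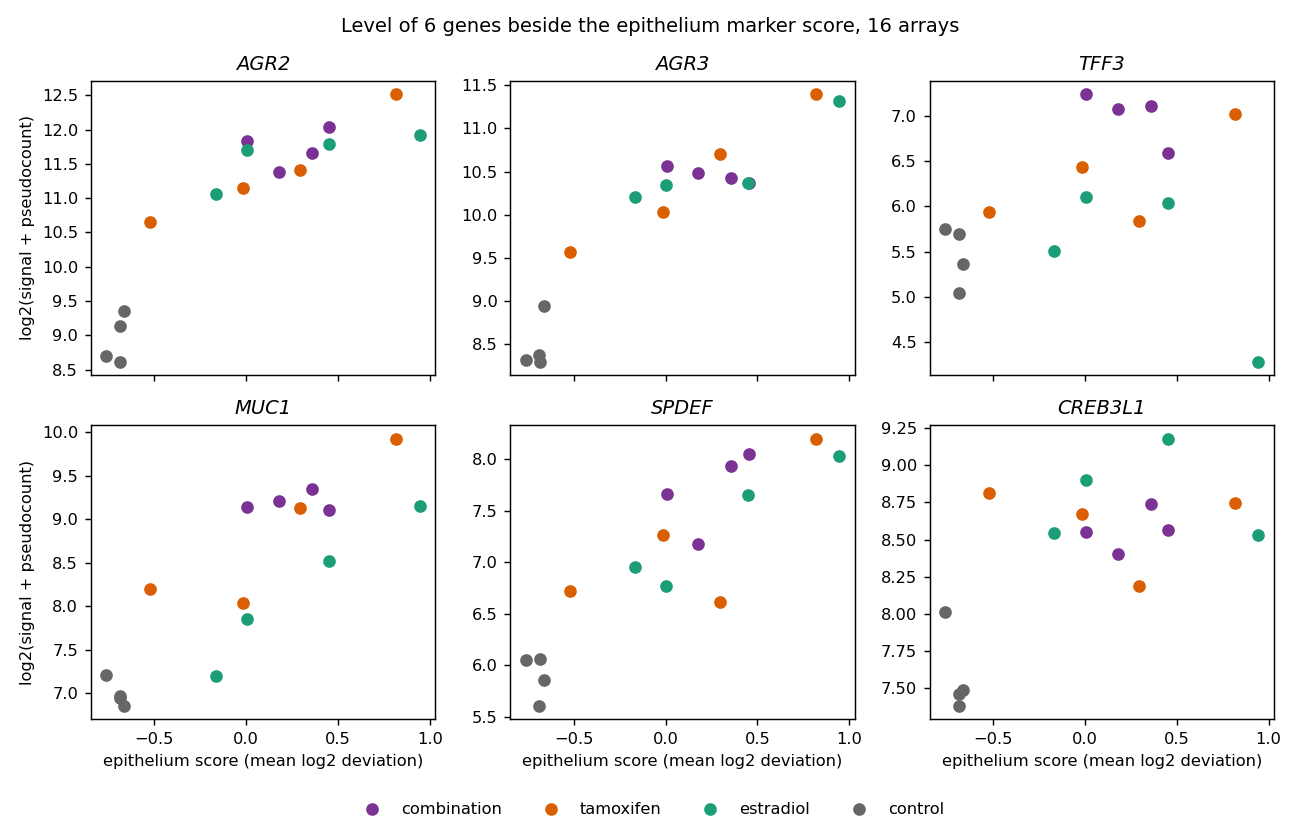
Log2 level (vertical axis) of 6 genes beside the epithelium score (horizontal axis, mean log2 deviation of 12 marker genes) on 16 arrays, coloured by arm. The 4 control arrays sit at the left, at scores of -0.76 to -0.66; AGR2 and AGR3 climb with the score within the tamoxifen arm, and TFF3 is lowest on the array with the highest score.

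A measure of RNA integrity also differed between arms. The log2 ratio of 3' to 5' actin probes ran from 0.48 to 0.64 with the combination, from 0.47 to 0.57 with tamoxifen and from 0.41 to 0.83 with estradiol, against 0.76 to 1.02 in control animals. The same ratio for GAPDH ran from 0.038 to 0.090 with the combination, -0.128 to 0.029 with tamoxifen and -0.099 to 0.093 with estradiol. Control animals had 0.086 to 0.218, above all tamoxifen arrays and overlapping the other drug arms. The part of RNA integrity in the differences from control was not tested.

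The wider pathway was followed through lists of genes around the members, each gene by its brightest probe set. Among 10705 genes, 10.6% were called higher with the combination, 8.59% with tamoxifen and 16.5% with estradiol, and 9.09%, 7.64% and 13.2% lower. The median change over all genes was -0.01 with the combination, -0.02 with tamoxifen and 0.01 with estradiol. All comparisons with control below use the same control arrays.

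None of the other mucins tested passed the threshold. Of 16 other mucins, 6 had a probe set and 3 were tested (MUC12, MUC13 and OVGP1, the oviductal glycoprotein), and 0 passed by limma in any comparison with control. At an unadjusted p under 0.05 there were also 0. Their median log2 differences were -0.27 with the combination, -0.33 with tamoxifen and -0.21 with estradiol.

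Proteins that lie with mucins in the secreted gel had the largest median differences of the 8 lists. The lists were chosen with earlier results of these data known, so this ranking is only a description. Of 8 tested, 5 rose and 1 fell with the combination, 5 rose with tamoxifen, and 3 rose and 1 fell with estradiol, with median log2 differences of 1.88, 1.75 and 0.83. DMBT1, a scavenger receptor of mucosal secretions, was higher by 3.03, 3.08 and 4.70, and its interaction was -4.74 (adjusted p = 0.00163 by limma). ZG16B, a secreted lectin, was higher by 1.47, 1.52 and 1.64, with an interaction of -1.68. CXCL17, a mucosal chemokine, was higher by 3.49 with the combination and 2.61 with tamoxifen, while 0.36 with estradiol did not pass. It was also called for the combination over estradiol (3.13, adjusted p = 0.00253) and for tamoxifen over estradiol (2.25, adjusted p = 0.0247). Lysozyme, LYZ, was higher by 2.82 with the combination and 2.58 with tamoxifen. WFDC2, a secreted protease inhibitor relative, was higher by 2.29, 1.98 and 1.31 on its brightest probe set, but only by 0.04, 0.13 and 0.18 on another. ITLN1, a lectin of mucus, was lower, with log2 differences of -3.08 with the combination and -3.40 with estradiol.

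Folding enzymes and stress sensors of the endoplasmic reticulum, the compartment in which AGR2 works, rose in part. Of 13 tested, 5 rose with the combination and 6 with tamoxifen, while 8 rose and 1 fell with estradiol, with median log2 differences of 0.22, 0.33 and 0.52. PDIA6 was higher by 0.83, 0.73 and 1.23, PDIA4 by 0.75, 0.73 and 0.87, and PDIA5 by 1.17, 1.27 and 1.00, all disulfide isomerases. ERO1B, an oxidase of those enzymes, was the gene that fell with estradiol (-0.49). The interaction was called lower for 6 of the 13, and for 6.55% of all 10705 genes, with -1.12 for PDIA6 (adjusted p = 0.00144 by limma). PDIA6 was also lower with tamoxifen than with estradiol (-0.50, adjusted p = 0.0447).

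Enzymes that build mucin-type O-linked sugars moved in both directions. Of 11 tested, 3 rose and 1 fell with the combination, 2 rose and 1 fell with tamoxifen, and 3 rose and 1 fell with estradiol, with medians of 0.28, 0.24 and 0.29. GCNT3, a branching enzyme of mucin sugars, was higher by 3.64, 3.24 and 2.76, and GALNT10, which adds the first sugar, by 1.69, 1.24 and 1.87. GALNT2, another enzyme of that first step, was lower, with differences of -0.42, -0.51 and -0.45. GCNT1 rose with the combination (1.47) and ST3GAL1 with estradiol (0.48).

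Regulators of secretory cells other than SPDEF and CREB3L1 gave 2 of 8 called in each drug arm, the same 2 genes. EHF, an epithelial ETS factor, was higher by 2.31 with the combination, 2.08 with tamoxifen and 1.56 with estradiol. FOXA2, a factor of uterine glands, was higher by 2.25, 2.15 and 1.80. Of 8 tested genes of granule release, SYTL4 (1.00, 1.04 and 1.46) and SYTL1 (1.16, 0.94 and 0.91), both partners of Rab proteins, rose in all drug arms. The interaction was -1.70 for FOXA2 (adjusted p = 0.0439 by limma) and -1.50 for SYTL4 (adjusted p = 0.00283).

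Of 8 tested genes of the mucus hydration list, 4 rose with the combination, 3 with tamoxifen and 2 with estradiol. These counts mix chloride channels with sodium channel subunits, so they give no direction of hydration. ANO1 and CFTR, the chloride channels of this list, were higher in all 3, by 1.17, 1.13 and 1.05 and by 1.49, 1.52 and 1.68. The sodium channel subunit SCNN1G was higher by 1.85 with the combination and 1.51 with tamoxifen, and SCNN1B by 1.08 with the combination. Partners of membrane-bound mucins were called higher in 5 of 9 with the combination, 1 with tamoxifen and 2 with estradiol, and 1 was lower with estradiol. EGFR, a growth factor receptor that binds MUC1, was higher by 1.47, 1.37 and 1.84, with an interaction of -1.74 (adjusted p = 0.00288 by limma). ERBB2 was higher by 0.54 with the combination and 0.40 with estradiol. MSLN (2.17), which binds MUC16, MET (1.11) and the membrane linker EZR (0.93) rose with the combination, and the galectin LGALS3 was lower with estradiol (-0.74).

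**Figure D5:**
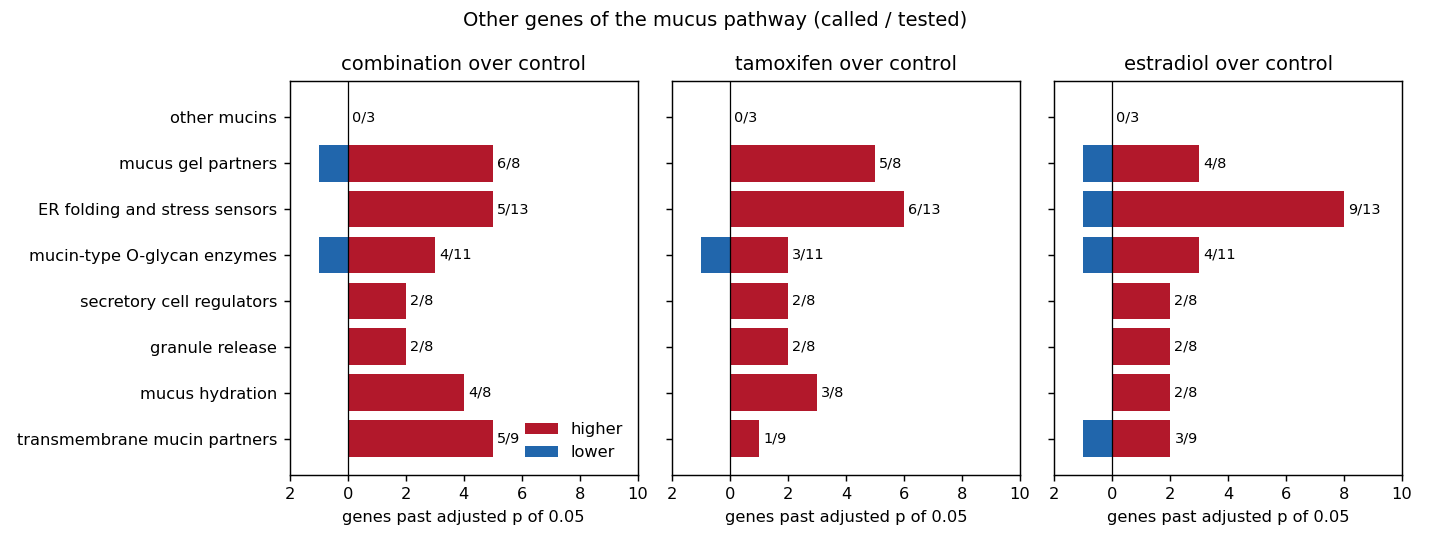
Number of genes past the threshold (horizontal axis) in 8 lists around the members, higher to the right of 0 and lower to the left, with called and tested counts beside each bar, for the combination, tamoxifen and estradiol over control. With the combination, mucus gel partners, endoplasmic reticulum folding genes and transmembrane mucin partners each have 5 genes higher; with estradiol the folding genes have 8 higher, and the other mucins have none in any arm.

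The genes whose log2 levels ran closest to each member over the 16 arrays are given as a description, since all share the arm differences. For AGR2 these were CPM (r = 0.985), MFSD2A (r = 0.971) and ADGRA3 (r = 0.970), and for AGR3 they were DSP, PTPN3 and PMEPA1 (r = 0.971, 0.968 and 0.964). TFF3 was closest to RTEL1, ATP10A and CXCL17 (r = 0.908, 0.870 and 0.845). MUC1 ran closest to HPN, EHF and PRR15L (r = 0.977, 0.963 and 0.962), and MUC20 to C1H1orf210, KDF1 and MYO1A (r = 0.911, 0.867 and 0.853). SPDEF was closest to MPPED2, CNOT11 and STK26 (r = 0.949, 0.948 and 0.944), and CREB3L1 to S1PR3, MMP7 and ARF3 (r = 0.959, 0.951 and 0.948). Among the members, TFF3 stood furthest from the rest, with r between 0.0058 and 0.58 with each other probe set. The lowest r was with SPDEF's MmugDNA.17275.1.S1_s_at, on which estradiol animal 4, lowest in TFF3, had the highest signal of all (172).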

How the data were processed

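Endometrial RNA of 16 animals was measured on 1 array each. The deposited values are MAS5 intensity values on a linear scale for 52865 probe sets; GCOS, MAS5 and Affymetrix Expression Console are named in the submitters' processing notes, while no source used here gives a scaling target. Because the mean after trimming 2% at each end was 250.0 on all arrays, values were not normalized again, and every change is relative to the array's total signal. No 2 arrays were duplicates, since the highest correlation between arrays was 0.971. Arms came from the sample titles; the labels say the animals were randomized, so the arrays of an arm are separate animals.

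The 99 control probe sets and the 40% with the lowest mean were left out. Values as log2(signal + 4.80), the pseudocount being the 10th percentile, were fitted with a mean per arm in limma 3.58.1 (R 4.3.3), with eBayes with trend, 12 residual degrees of freedom and 7 comparisons. The arrays, 4 per arm, limit the precision. The pseudocount shrinks the differences of dim probe sets. Symbols came from the platform annotation, with 1 symbol for 24956 probe sets, several for 361 and none for 27449, leaving out control probe sets. Cross-hybridisation was not examined. Gene neighbours came from the RefSeq annotation of a cynomolgus genome.

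The members, gene lists and tests were chosen with earlier results of these data known. Named genes were every member probe set, up to 4 called genes of each list with the smallest p in a comparison, and the 3 genes with the highest r to each member. LYZ, ERO1B and EZR were named outside this rule after their values were seen, as were the interaction values of list genes. Alternatives were other pseudocounts and filters, quantile normalization, eBayes without trend, fits of 2 arms, a block for animal number, the epithelium score as a covariate, leaving out arrays, and other probe sets of a gene.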

Additional observations from a re-analysis of the deposited data

Results flagged for a closer look

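On the log2 scale the estradiol effect differed with and without tamoxifen, by the interaction term of the limma fit, for AGR2 (-2.37), AGR3 (-2.04), the dimmer AGR2 probe set (-1.43) and CREB3L1 (-1.25).

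Among 92 groups of 4 arrays examined for a single array far from the rest, 4 had one; chance gives about 1 in 20 such groups. The gap to the nearest other array, as a share of the arm's whole range, was 0.856 for AGR3 in estradiol animal 4, with a signal of 2547 against 1175 to 1313 in the other animals. It was 0.878 for AGR3 in control animal 3, at 489 against 310.2 to 328. It was 0.832 for SPDEF on MmugDNA.41932.1.S1_s_at in combination animal 1, at 91.6 against 83.7 to 85.0, an arm whose whole range was narrow. It was 0.939 for the smooth muscle score of estradiol animal 4, at -3.72 against 0.17 to 0.42.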

How the results depend on the processing

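The counts of members called against control kept within 1.5 times of the reported value under every alternative except the epithelium score as a covariate, which gave 5 for the combination, 4 for tamoxifen and 3 for estradiol. That covariate also gave 4 for the combination over estradiol, 1 for tamoxifen over estradiol and 2 for the interaction. The 0 for the combination over estradiol became 1 with a pseudocount of 16, 2 without estradiol animal 4 and tamoxifen animal 1 together, and 0 to 1 when single arrays were left out.

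Animal numbers did not pair the samples: residuals of same-numbered animals correlated between -0.27 and 0.09, those of other animals between -0.50 and 0.51. With the replicate block the counts against control were 11, 9 and 7 for the combination, tamoxifen and estradiol, the count for the combination over estradiol was 1, and MUC1 with estradiol had an adjusted p of 0.0628.

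Signs that turned belonged to differences that did not pass in the reported fit, except MUC1 with estradiol, which was -0.24 with the covariate. With it MUC20 was -0.64, -1.01 and -1.65 against control for the combination, tamoxifen and estradiol. The interaction was then 2.02 for MUC20 and 0.47 for MUC1. AGR3 was -0.080 for the combination over tamoxifen and 0.046 for tamoxifen over estradiol, and SPDEF was 0.014 for tamoxifen over estradiol. Without estradiol animal 4 and tamoxifen animal 1 together, AGR3 was 0.15 for the combination over estradiol, CREB3L1 0.0040 for the combination over tamoxifen, and MUC20 -0.093 for tamoxifen over estradiol and 0.57 for the interaction. AGR2 was 0.15 for tamoxifen over estradiol on its dimmer probe set.

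With single arrays left out, ranges crossing 0 were -0.080 to 0.22 for AGR2 and -0.22 to 0.15 for AGR3 in the combination over estradiol. Over tamoxifen, the combination gave -0.25 to 0.36 for AGR3, -0.30 to 1.16 for MUC20 and -0.18 to 0.026 for CREB3L1. Tamoxifen over estradiol gave -0.55 to 0.073 for AGR2, -0.46 to 0.15 for AGR3, -0.49 to 0.071 for SPDEF and -0.41 to 1.17 for MUC20. The MUC20 interaction ran from -1.08 to 0.38, and TFF3 with estradiol from -0.18 to 0.42. The cause of these changes was not tested. Dim probe sets, above all those of MUC20, limit what 4 arrays per arm can show.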
